A study of Mus musculus with 10 samples.

Results

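The circadian clock genes described here are 10 genes chosen by symbol (Clock, Per1, Per2, Per3, Cry1, Cry2, Nr1d1, Nr1d2, Dbp and Tef), out of 21160 genes in a table of read counts from mouse gastrocnemius (GAS). All 10 are in the table, and 9 passed the filter on low counts and were tested for a difference, with Dbp left out at 7 counts in all. The libraries came from wild-type (WT) male C57BL/6J mice with diet-induced obesity (DIO), 5 treated with the anti-miR-22 ASO (labelled RES-010, an antisense oligonucleotide with LNA modifications that binds miR-22) and 5 controls (CTRL). Every mouse had been put on a high-fat diet (HFD) at 9 weeks of age and kept on it for 9 weeks before treatment, and was then injected under the skin once a week for 14 weeks while still on HFD, with the ASO at 10 mg/kg or with 0.9% saline. The control was saline and not an oligonucleotide of scrambled sequence, so an effect of miR-22 inhibition and an effect of carrying an oligonucleotide cannot be told apart in these groups. The hour of dissection is not given in the sources used here, so time of day was not tested for any difference below. Neither miR-22 nor its host gene was analysed here, and the labels were not checked against the target of the ASO.

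The molecular clock is a feedback loop of transcription that runs in nearly every cell, skeletal muscle fibers included. The CLOCK protein pairs with BMAL1 on E-box sequences and activates the Per and Cry genes, whose proteins return to the nucleus and block that activation, while the nuclear receptors NR1D1 and NR1D2 (REV-ERB) repress Bmal1. Dbp and Tef encode PAR bZIP factors that act through D-box sequences and carry the rhythm to other genes. In muscle the clock is known for its link to daily rhythms of glucose and lipid use, and the RNA of several of these genes rises and falls strongly over the day.

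The sequences shown are the mature microRNA that the ASO was made against, with its seed in capitals, and every match to that seed in the longest annotated 3′UTR of the 10 genes, since both genes that hold one are the pair that passed the test below. The microRNA is from RefSeq (GRCm38.p6 table), and the capitals in the sites mark the heptamer GGCAGCT, the reverse complement of the seed in DNA letters, read from GRCm39.
mmu-miR-22-3p: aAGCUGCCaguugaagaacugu
Per3 site: gaagttcctgtGGCAGCTgcctttcacag
Tef upstream site: aagaacaatgtGGCAGCTaaacgctcccg
Tef downstream site: ctttccactcaGGCAGCTcctacagtcct
The heptamer of the Per3 site lies at chr4:151089676-151089682 on the minus strand, in the 3′UTR of the main Per3 transcript that was counted. Those of Tef lie at chr15:81707705-81707711, followed by an A and outside the 3′UTRs of the counted transcripts, and at chr15:81710538-81710544, inside the 3′UTRs of both counted transcripts, all on the plus strand. No heptamer was found in the longest 3′UTR of Clock, Per1, Per2, Cry1, Cry2, Nr1d1, Nr1d2 or Dbp. A match is frequent, since 21.7% of the tested genes with an annotated 3′UTR held at least 1. Among these 1690 genes 213 were higher and 312 lower with the ASO, at a median log2 fold change of -0.01. Of the 6091 genes without a match, 695 were higher and 1042 lower, at a median of -0.04. Whether the sites act in this muscle was not tested.

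Promoter matches to the motifs of the loop are shown for Per3 and Tef for the same reason, in RefSeq promoters on GRCm38.p6, a different build from that of the counts. Letters searched on both strands were CACGTG for the E-box, TTANGTAA for the D-box and TNAGGTCA for the response element of REV-ERB and ROR (RRE), and capitals mark the match.
Per3 upstream D-box match: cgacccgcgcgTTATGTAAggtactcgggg
Per3 downstream D-box match: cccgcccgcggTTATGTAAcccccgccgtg
Tef E-box match of the upstream start site: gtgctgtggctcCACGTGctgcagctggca
Tef E-box match of the downstream start site: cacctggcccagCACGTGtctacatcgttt
The D-box matches lie at chr4:151044863-151044870 and chr4:151044816-151044823, and the E-box matches at chr15:81802546-81802551 and chr15:81811276-81811281. Among all 32851 RefSeq promoters, 7.15% held the E-box letters, 2.32% the D-box letters and 4.58% the RRE letters. Of the 9 listed genes with a promoter in that table, 3 held an E-box match (Cry1, Per1 and Tef) and 1 a D-box match (Per3). An RRE match was held by 2 (Clock and Per1), and no match of a motif overlapped a match of another. A gene was counted if any of its promoters matched (3 promoters for Clock, 2 for Per1 and 2 for Tef). The shares above are of single promoters, so the 2 are not in like units. These are matches of letters and were not tested as binding sites.

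The authors made the counts on segments of at most 500 bp at the 3′ end of transcripts, and these were added up for each gene. Library totals were 2239186 to 2632560 counts with the ASO (median 2418427) and 1606909 to 2116720 in CTRL (median 1782332), so each treated library was deeper than each control library. Levels are given as CPM, counts scaled to the same library size by TMM, a normalization that assumes that most genes do not change, and differences were tested with edgeR's quasi-likelihood test and Benjamini-Hochberg adjustment over 7819 genes, at a threshold of 0.05. Of these genes 29.2% passed the threshold, 11.7% as higher (916 genes) and 17.5% as lower with the ASO (1365 genes), and the median gene stood at -0.03 on the log2 scale, while scaling by total counts gave 528 higher and 1821 lower at a median of -0.21. Summed muscle fiber markers (Acta1, Ckm, Actn3 and Tcap, 4 of 7 listed, with Mb, Pygm and Tnnt3 at 0) held 95479 to 147929 CPM in treated and 47410 to 89018 CPM in control libraries, without overlap. The other marker sums overlapped between groups, as for all 6 adipocyte genes (714 to 3619 CPM with the ASO, 843 to 13262 CPM in CTRL), 3 of 5 macrophage genes (17.9 to 117 and 55.5 to 342 CPM, with Adgre1 and Cd163 at 0), all 5 endothelial genes (141 to 316 and 137 to 254 CPM), 3 of 4 fibroblast genes (18.4 to 175 and 57.5 to 132 CPM, with Dcn at 0), all 4 Schwann cell genes (35.7 to 526 and 75.9 to 157 CPM) and 3 of 4 blood genes (243 to 1474 and 804 to 1286 CPM, with Alas2 at 0). A count of 0 can come from a segment shared with another transcript. In bulk tissue, fewer cells of a type and less RNA per cell cannot be told apart.

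Of the 9 clock genes tested, Per3 and Tef were higher with the ASO and none was lower, so that 2 of 9 passed the test where 29.2% of all genes did. The other 7 did not pass the threshold, with 4 values above 0 (Per2, Nr1d1, Cry1 and Nr1d2) and 3 below 0 (Per1, Clock and Cry2). The median log2 fold change of the 9 was 0.47, beside -0.03 for all genes tested. DESeq2 and limma-voom called the same pair, and DESeq2 also called Nr1d1 higher.

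**Figure D1:**
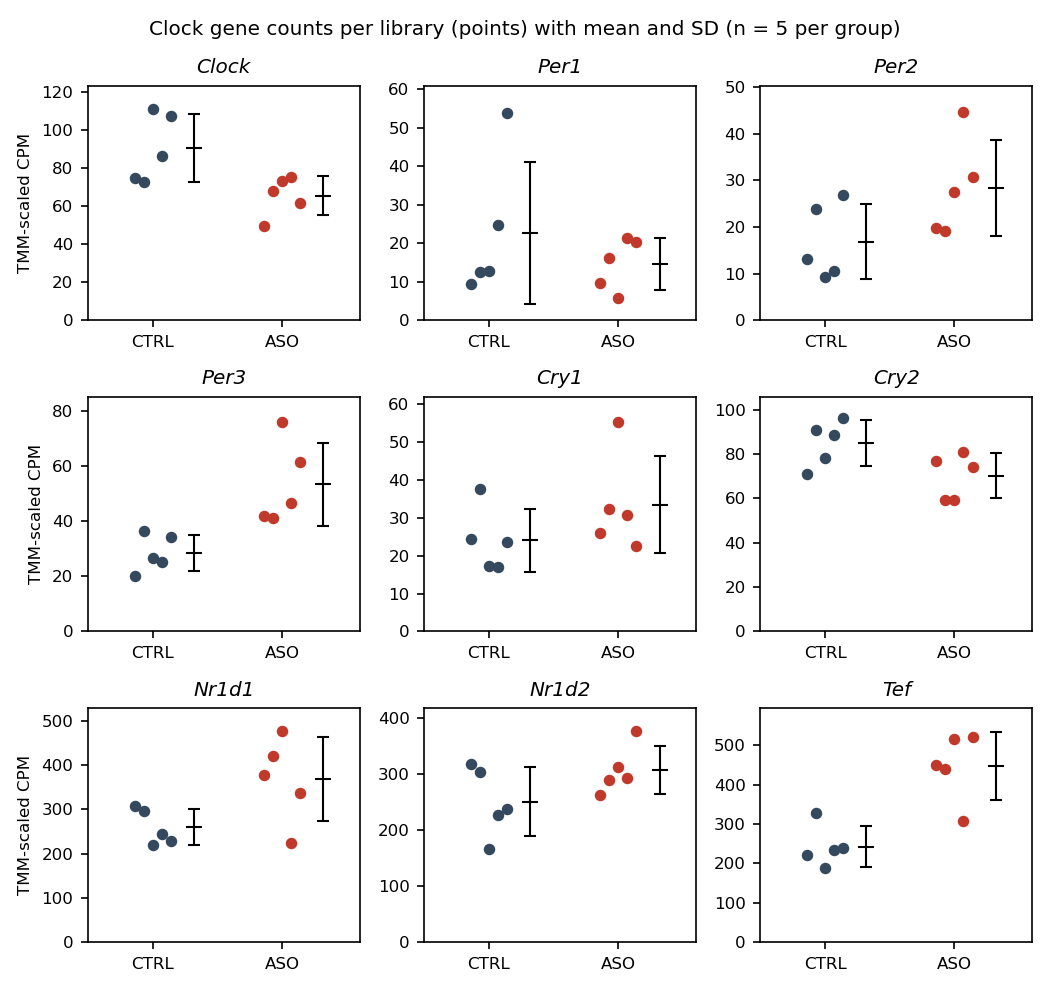
Levels of 9 clock genes (TMM-scaled CPM, linear axes from 0) in the 5 CTRL and 5 ASO libraries, a point per library, with mean and SD as a bar beside the points. The ASO libraries of Per3 (41.2 to 76.1 CPM) all sit above those of CTRL (20.3 to 36.4 CPM), the groups of Tef meet in 1 ASO library at 308 CPM, and the other genes overlap too, Clock between 72.7 and 75.6 CPM.

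On the scale of CPM per kb of segment not shared with another (the main segment of each gene, since segments differ in length), the order of levels in CTRL ran from Nr1d1 to Dbp. Nr1d1 stood at 902 ± 141 (SD, n = 5), Tef at 705 ± 169 and Nr1d2 at 501 ± 124. Cry2 followed at 144 ± 17.2, Per1 at 94.6 ± 84.0, Clock at 87.9 ± 16.3, Per3 at 54.8 ± 12.9, Cry1 at 48.1 ± 16.8, Per2 at 33.6 ± 16.1 and Dbp at 3.70 ± 5.81. The place of Per1 rested on CTRL replicate 5, since its mean was 58.5 without that library and its median 48.8, against medians of 81.4 for Clock and 50.7 for Per3. The main segments of Per1 and Clock lie 3502 and 2309 bp upstream of the most distal ends counted for these genes. The REV-ERB genes and Tef thus formed the upper range. Neighbours in this order overlapped between CTRL libraries, except Nr1d2 above Cry2 and Per2 above Dbp. The place of Dbp rests on 3 counts in CTRL and says little of its level. Dividing by unshared length may not correct for read pairs that also touch a shared stretch. This concerns Dbp (89 bp unshared), Per1 (162 bp) and Tef (165 bp), so their places are uncertain. With the ASO, Tef stood at 1605 ± 413 and Nr1d1 at 1277 ± 330, with ranges that overlapped, and Per3 rose to 105 ± 30.3, with a range that overlapped that of Clock at 95.9 ± 12.3.

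Clock encodes the activating partner of BMAL1 and lies on the minus strand at chr5:76342860-76452846 (GRCm39), with 3 counted segments in 3′UTRs of its transcripts. It held 49.7, 68.0, 73.2, 75.6 and 61.8 CPM in the ASO libraries and 75.0, 72.7, 111, 86.7 and 108 CPM in the CTRL libraries. The groups overlapped narrowly, with 4 ASO libraries at or under 73.2 CPM and CTRL from 72.7 CPM upward. Treated mice averaged 65.6 ± 10.3 CPM and controls 90.7 ± 18.0 CPM (± SD over 5 libraries, here and below), which gave a log2 fold change of -0.46 (SE 0.17, edgeR adjusted p = 0.054), and a two-sided exact permutation test of its log2 CPM gave p = 0.040 (0.13 adjusted over the 10 genes). The value was below the threshold without CTRL replicate 1 or CTRL replicate 2 (at its lowest an adjusted p of 0.038 by edgeR), with total counts and in 2 further fits, and it did not hold on every segment, as given below.

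The Period genes encode repressors of the CLOCK and BMAL1 pair, and Per3 is the member of the family that the clock in mice depends on least. Per3 lies on the minus strand at chr4:151081373-151129140, and 97.3% of its 886 counts were on the segment chr4:151088109-151088608 in the 3′UTR of its main transcript. It held 42.0, 41.2, 76.1, 46.8 and 61.8 CPM in the ASO libraries and 20.3, 36.4, 26.7, 25.4 and 34.2 CPM in the CTRL libraries. Each ASO library was above each CTRL library, as for 7.98% of all genes tested (in either direction, 21.4% had no overlap). Treated mice averaged 53.6 ± 15.1 CPM and controls 28.6 ± 6.63 CPM, a log2 fold change of 0.91 (SE 0.22, edgeR adjusted p = 0.0088), and the exact permutation test gave p = 0.0079, the smallest that 252 labellings allow (0.079 adjusted over the 10 genes). Per3 passed the threshold in all 13 fits that changed the processing (0.69 to 0.99) and in all 10 fits that left out a library (0.78 to 1.01). The summed muscle fiber markers moved in the same direction, and their part in the result was not tested.

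Per2, the Period gene whose loss most disturbs the rhythm of mice, lies on the minus strand at chr1:91343700-91387069 and was counted on a single segment, chr1:91343704-91344203. It held 19.8, 19.1, 27.5, 44.7 and 30.6 CPM in the ASO libraries and 13.2, 23.8, 9.39, 10.6 and 26.9 CPM in the CTRL libraries. The groups overlapped, with 2 CTRL libraries above the lowest ASO libraries. The log2 fold change of 0.75 (SE 0.33) had an edgeR adjusted p of 0.11 (exact permutation p = 0.079), and in no fit that left out a library did it pass the threshold (0.55 to 0.98).

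Per1, which responds within the hour to light in the brain and to glucocorticoids in peripheral tissue, lies on the plus strand at chr11:68986035-69002300. It held 9.66, 16.1, 5.92, 21.3 and 20.3 CPM in the ASO libraries and 9.43, 12.6, 12.8, 24.8 and 53.9 CPM in the CTRL libraries. Its spread within CTRL was the widest of the tested members relative to its mean, 22.7 ± 18.4 CPM, because of CTRL replicate 5, and the ASO mean was 14.7 ± 6.69 CPM. The log2 fold change of -0.62 (SE 0.49, edgeR adjusted p = 0.36) fell to -0.02 without CTRL replicate 5. Only 377 counts were held in all, on 3 of 5 segments, and the most distal segments overlap each other so that 12 bp there counted for a single transcript. Of the counts, 58.1% were on chr11:68996785-68997284 and 23.9% on chr11:68996623-68997122, which lie 3502 and 3664 bp upstream of the most distal end. Fitted as a single segment, the former had a log2 fold change of -1.12 (SE 0.59, edgeR adjusted p = 0.15). Its mean fell from 15.3 (CTRL) to 6.89 CPM (ASO). Means of the other segments with counts did not fall (4.12 to 4.73 CPM and, distally, 3.24 to 3.34 CPM).

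The Cryptochrome genes encode the partners of the Period proteins and the stronger repressors of the loop. Cry1, on the minus strand at chr10:84967560-85021252 with the single segment chr10:84967564-84968063, held 26.1, 32.3, 55.4, 30.9 and 22.6 CPM in the ASO libraries and 24.5, 37.8, 17.3, 17.1 and 23.6 CPM in the CTRL libraries. The groups overlapped, and ASO replicate 3 stood highest. Its log2 fold change was 0.47 (SE 0.28, edgeR adjusted p = 0.23), with 0.24 when ASO replicate 3 was left out.

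Cry2, on the minus strand at chr2:92233894-92264474, held 76.8, 59.5, 59.2, 81.0 and 74.0 CPM in the ASO libraries and 70.7, 90.9, 78.0, 88.5 and 96.0 CPM in the CTRL libraries. In the ASO libraries 3 values lay inside the CTRL range and the other two below it, at a log2 fold change of -0.28 (SE 0.14, edgeR adjusted p = 0.16). Both Cryptochromes therefore stayed on the same side of the threshold, with values of opposite sign, and whether they differed from each other was not tested. Cry2 passed the threshold as lower in 1 fit, that with total counts, at -0.45.

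Nr1d1 and Nr1d2 encode REV-ERB alpha and beta, repressors of Bmal1 and of many metabolic genes, and had the most counts of the tested members next to Tef (6715 and 5930). Nr1d1, on the minus strand at chr11:98658752-98666188 with the segment chr11:98658758-98659045, held 378, 421, 477, 225 and 338 CPM in the ASO libraries and 308, 297, 219, 245 and 229 CPM in the CTRL libraries. Of the ASO libraries 4 were above all of CTRL, while ASO replicate 4 was within the CTRL range. Its mean was 368 ± 95.0 CPM with treatment and 259.7 ± 40.5 CPM without, a log2 fold change of 0.50 (SE 0.19) that did not pass the threshold (edgeR adjusted p = 0.070, exact permutation p = 0.056). It passed as higher with DESeq2, with upper quartile scaling and without ASO replicate 4 (0.65, edgeR adjusted p = 0.010).

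Nr1d2, on the plus strand at chr14:4230545-4266624 with the segment chr14:4265143-4265642, held 262, 289, 312, 293 and 376 CPM in the ASO libraries and 318, 304, 166, 227 and 237 CPM in the CTRL libraries. The groups overlapped between 262 and 318 CPM, at means of 306 ± 42.8 CPM and 250.5 ± 61.8 CPM. The log2 fold change of 0.29 (SE 0.18, edgeR adjusted p = 0.25) passed the threshold in none of the fits.

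Tef, the PAR bZIP factor, lies on the plus strand at chr15:81686622-81711064 and had 7407 counts, the most of the 10 genes. It held 450.4, 439, 516, 308 and 520.1 CPM in the ASO libraries and 222, 327, 188, 235 and 239.7 CPM in the CTRL libraries. ASO replicate 4 was below CTRL replicate 2, and all other ASO libraries were above all CTRL libraries. Treated mice averaged 447 ± 86.1 CPM and controls 242 ± 51.3 CPM, a log2 fold change of 0.88 (SE 0.18, edgeR adjusted p = 0.0040), and the exact permutation test gave p = 0.016 (0.079 adjusted over the 10 genes). Tef passed the threshold in all 12 fits of other processing that could test it (0.69 to 0.97) and in all 10 that left out a library (0.80 to 1.02). As for Per3, the muscle fiber markers moved in the same direction, with their part not tested.

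Dbp, the relative of Tef with one of the steepest daily rhythms of any mouse RNA, had counts of 0, 0, 0, 3 and 1 in the ASO libraries and of 0, 1, 0, 2 and 0 in the CTRL libraries. Every library was at or under 3 counts, the floor used here, and no fold is given. Its segment chr7:45359305-45359627 on the plus strand has 89 bp that belong to it alone, and 86 bp are shared with a gene on the opposite strand, so these counts say little of how much Dbp RNA the muscle held.

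**Figure D2:**
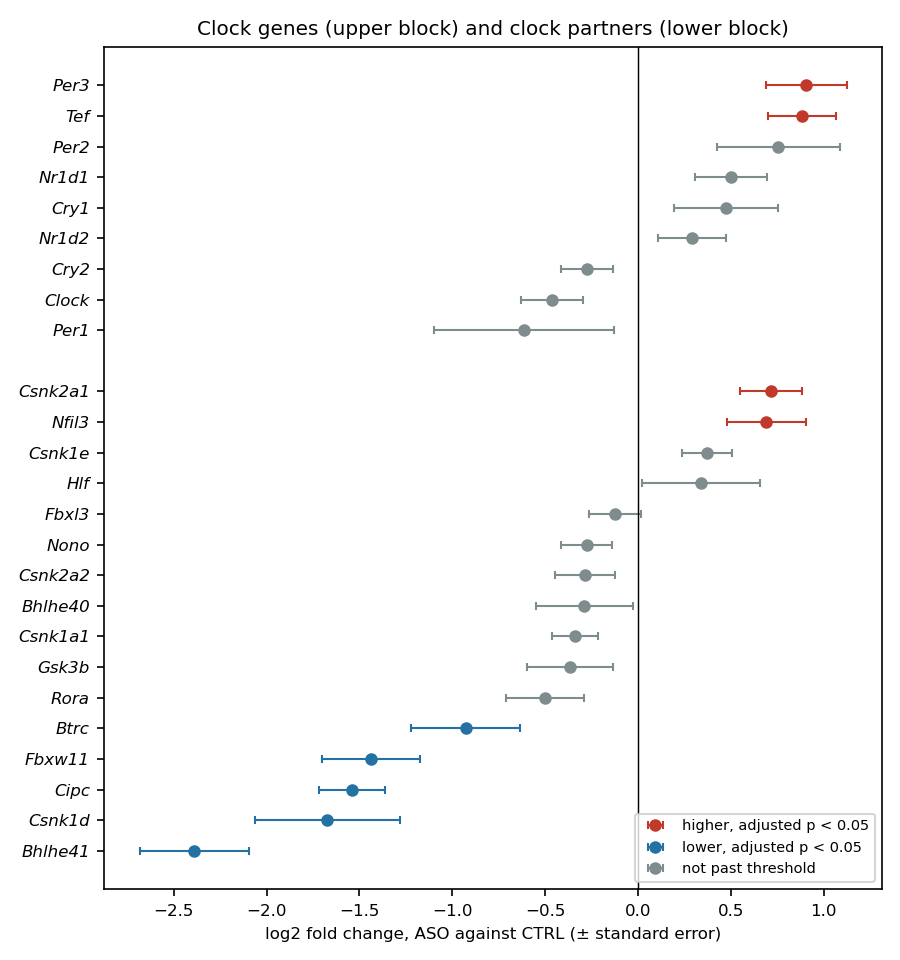
Log2 fold change of ASO against CTRL (points) with its standard error (bars) for the 9 clock genes tested, in the upper block, and clock partners that were tested, in the lower block, coloured by whether edgeR's adjusted p was under 0.05. Per3 and Tef lie near 0.9 in the upper block, and Bhlhe41 lies farthest to the left of all at -2.39.

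Segments of a gene did not all move alike, which was examined after seeing the data by fitting each segment on its own among 10658 segments. Of these, 40.6% passed the threshold, 15.9% as higher and 24.7% as lower, and of the 13 clock gene segments tested 4 were higher (the single Nr1d1 segment, the main Per3 segment, Tef-201 and Tef-202) and 2 were lower (Clock-204 and the upstream of both Cry2 segments). The lower pair belongs to transcripts that end well upstream of the distal ends of their genes.

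Clock-204, at chr5:76361700-76362199 and 3985 bp upstream of the most distal end counted for Clock, had 8, 17, 9, 22 and 8 counts in the ASO libraries and 46, 46, 79, 59 and 90 counts in the CTRL libraries. No library overlapped, and controls averaged 33.4 ± 12.6 CPM and treated mice 5.69 ± 2.57 CPM, a log2 fold change of -2.52 (SE 0.34, edgeR adjusted p = 1.4e-04). The 2 other segments of Clock did not pass the threshold, with 0.17 (SE 0.17, adjusted p = 0.46 by edgeR) on Clock-201 at chr5:76360024-76360523, which carries 59.8% of the counts of the gene, and -0.08 (SE 0.27, adjusted p = 0.83 by edgeR) on Clock-205 at chr5:76357715-76358214. The value below 0 of the summed gene was thus found on Clock-204 and not on the segment with the most counts, where it was above 0.

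The upstream segment of Cry2, at chr2:92241605-92241972 and 7614 bp from the distal end, had 8, 4, 1, 3 and 4 counts in the ASO libraries and 18, 19, 26, 29 and 30 counts in the CTRL libraries. The groups did not overlap, and the log2 fold change was -2.76 (SE 0.42, edgeR adjusted p = 2.8e-04). On the main segment, at chr2:92233991-92234490 with 91.2% of the counts, it was -0.04 (SE 0.15, edgeR adjusted p = 0.86).

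Both counted segments of Tef rose, by 0.57 (SE 0.19, edgeR adjusted p = 0.027) on Tef-201 at chr15:81710400-81710899 and by 1.23 (SE 0.21, edgeR adjusted p = 6.6e-04) on Tef-202 at chr15:81710565-81711064, which ends 165 bp further downstream. The segments overlap, and 165 bp of each belong to it alone. The Nr1d1 segment passed the threshold in the segment fit (0.54, edgeR adjusted p = 0.042) with the same counts that did not pass it in the gene fit, so its call depended on which features were fitted together.

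**Figure D3:**
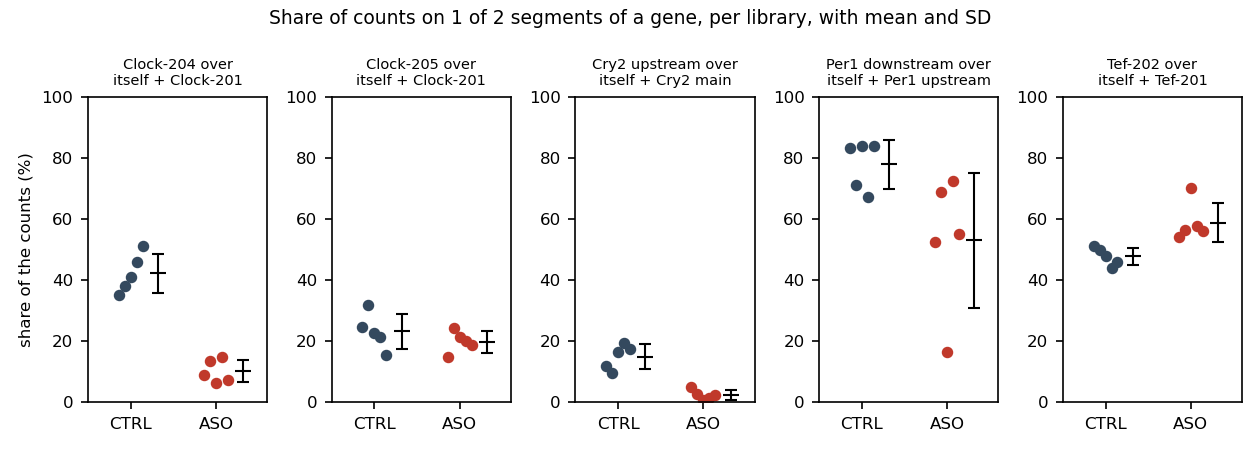
Share of counts (percent, axis from 0 to 100) on the segment named above each panel, out of its counts plus those of the other segment named, for 5 CTRL and 5 ASO libraries (points) with mean and SD. Clock-204 held 35.1% to 51.1% in CTRL and 6.52% to 14.8% with the ASO, and the upstream Cry2 segment held 9.74% to 19.3% in CTRL and 0.714% to 5.03% with the ASO.

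Within a library, the ratio of 2 segments of a gene does not depend on scaling. The 5 ratios below were chosen after seeing the data and use the same counts as the segment fits. Their p-values therefore describe the separation and are not separate support for it. The share of Clock-204 in its counts plus those of Clock-201 was 6.52% to 14.8% with the ASO and 35.1% to 51.1% in CTRL, a difference of -2.70 in mean log2 ratio (two-sided exact permutation p = 0.0079, 0.013 adjusted over 5 ratios). For the upstream beside the main segment of Cry2 the shares were 0.714% to 5.03% and 9.74% to 19.3% (-2.78, exact p = 0.0079, 0.013 adjusted). The share of Tef-202 beside Tef-201 went the other way, 54.2% to 70.2% with the ASO and 44.1% to 51.2% in CTRL (0.66, exact p = 0.0079, 0.013 adjusted). In these 3 genes the ASO libraries held relatively more counts on the segment nearer to the distal end of the gene. Of 2 overlapping Per1 segments that end well upstream, the share of the downstream one (chr11:68996785-68997284) beside the other (chr11:68996623-68997122) was 16.7% to 72.5% with the ASO and 67.5% to 84.2% in CTRL, with overlap (-1.64, exact p = 0.040, 0.050 adjusted), and that of Clock-205 beside Clock-201 overlapped throughout (-0.28, exact p = 0.33).

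The fall of upstream segments was not particular to clock genes. Among 3084 segments that lie at least 1000 bp upstream of the most distal segment of their gene, in 2217 genes, the ratio to the most distal segment was lower in all ASO libraries than in all CTRL libraries for 46.3% and higher in all of them for 1.46%. Whether this shift of the libraries accounts for the values of Clock-204 and the upstream Cry2 segment was not tested. When the fit kept a single segment per gene, the most distal, Per3 passed the threshold at 0.69 and Tef was again higher. Nr1d2, whose counts were the same as in the gene fit, moved there from 0.29 to 0.07. Clock, left with Clock-205 alone, stood at -0.35 (SE 0.26, edgeR adjusted p = 0.38). The fit of single segments gave -0.08 for the same counts.

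Other genes of the clock, 25 in a list of partners, were read beside these. Of the 17 tested, 3 were higher, 5 were lower and 9 did not pass the threshold, at a median log2 fold change of -0.29, where 11.7% of all genes tested were higher and 17.5% lower. Among those higher was Nfil3, whose product represses at the D-box where TEF and DBP activate (0.69, SE 0.21, edgeR adjusted p = 0.028), and so was Csnk2a1, a catalytic subunit of casein kinase 2 (0.71, SE 0.17, edgeR adjusted p = 0.0074). Nfil3 lost its call with total counts, on the most distal segment and in 5 of 10 fits that left out a library, while Csnk2a1 kept its call in all of these.

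Bhlhe41, the DEC2 repressor of the E-box, was lower with the ASO at 9.55 ± 2.96 CPM against 50.7 ± 19.1 CPM (-2.39, SE 0.29, edgeR adjusted p = 2.2e-04), and Cipc, an inhibitor of CLOCK, at 42.9 ± 5.75 CPM against 125 ± 31.1 CPM (-1.54, SE 0.18, edgeR adjusted p = 1.6e-04). Csnk1d, a kinase of the Period proteins (-1.67, edgeR adjusted p = 0.0073), and the genes of 2 related F-box proteins that mark them for degradation, Fbxw11 (-1.44, edgeR adjusted p = 0.0020) and Btrc (-0.93, edgeR adjusted p = 0.031), were lower as well. Btrc, with 148 counts in all, lost its call with DESeq2, without the filter, with a replicate block, with libraries drawn down and in 6 of 10 fits that left out a library (edgeR adjusted p of 0.025 to 0.086 over these 10). Part of this lay on upstream segments, which held 88.5% of the counts of Bhlhe41 (5262 bp upstream) and 95.8% of those of Csnk1d (13500 bp upstream, in a transcript annotated for nonsense-mediated decay) and 19.4% of those of Fbxw11 (25995 bp upstream), and the part of the shift described above was not tested. With unshared segments only, Fbxw11 stood at -4.84, a value of its upstream segment alone, since its most distal segment is partly shared. On the most distal segment alone Fbxw11 stood at -1.24 (SE 0.27, edgeR adjusted p = 0.0089). Cipc held 64.9% of its counts on the most distal segment, and Btrc 97.3%. Bmal1, the partner of Clock, had 22 counts in all and was not tested. They lay on a segment of 221 bp, of which 7 bp are not shared with another segment. These counts therefore say little of how much Bmal1 RNA the muscle held. Npas2, a relative of Clock, had 55 counts and was not tested. It stood at 4.30 ± 1.78 CPM in controls and 1.23 ± 0.34 CPM in treated mice, without overlap.

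Of 10 genes with a daily rhythm in many tissues, 7 were tested, none was higher and 2 were lower, at a median of -0.57, beside 17.5% lower among all genes tested. These were Nampt, the rate-limiting enzyme of NAD salvage (-0.90, SE 0.18, edgeR adjusted p = 0.0029), and Lpin1, a phosphatidate phosphatase (-1.50, SE 0.21, edgeR adjusted p = 4.7e-04). On the most distal segment alone Nampt stood at -0.28 and was not past the threshold, and Lpin1 had 1.72% of its counts there.

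Clock genes that peak at different hours can be set against each other within groups, as a description. After subtraction of each group mean from log2 CPM, the 36 pairs of the 9 tested genes had a median Pearson's r of 0.17 over 10 libraries, and 22 were positive. The most positive pair was Nr1d1 with Tef (r = 0.72), and the most negative was Cry2 with Nr1d1 (r = -0.66). Clock had an r under 0 with Nr1d1 (-0.46), Nr1d2 (-0.51) and Tef (-0.50), and Per1 had one with Nr1d1 (-0.62) and a positive one with Cry2 (0.64). ASO replicate 4 was lowest of its group for Nr1d1 (225 CPM) and Tef (308 CPM). It was highest for Clock (75.6 CPM), Per1 (21.3 CPM), Per2 (44.7 CPM) and Cry2 (81.0 CPM). For Per3 (46.8 CPM), Cry1 (30.9 CPM) and Nr1d2 (293 CPM) it was neither highest nor lowest. All values of a pair come from the same library and share its depth, and at this number of libraries no test was made.

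**Figure D4:**
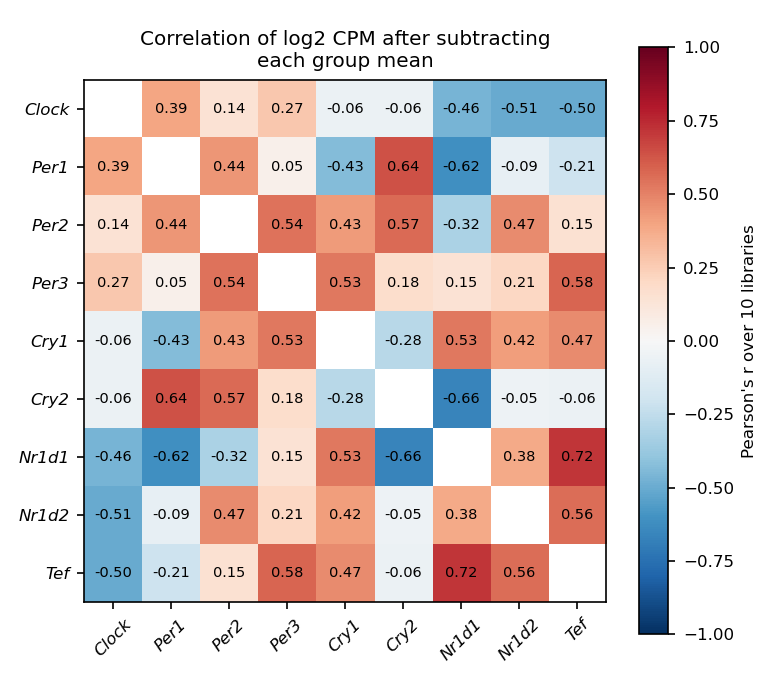
Pearson's r between the log2 CPM of each pair of the 9 tested clock genes over 10 libraries, after each group mean was subtracted, from blue (-1) to red (1). Nr1d1, Nr1d2 and Tef have positive values with each other (0.38 to 0.72) and values below 0 with Clock.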

How the data were processed

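Poly(A) RNA of GAS from 10 DIO mice was sequenced with a stranded kit (500 ng RNA, RIN of at least 7). The authors deposited unnormalized counts, made with fastp, STAR on GRCm39 and featureCounts of read pairs on Gencode M25. Only the final 500 bp of each 3′UTR was counted, which the authors did to deal with biases in coverage. No strand option is stated. The count table has 52423 segments, of which 52361 were matched to GENCODE M39 and summed per gene, while the 62 others (0.0197% of the counts) stayed as separate features. The columns of 10 libraries were used and 4 other per-sample columns were not. Coordinates are 1-based on GRCm39, except the promoters on GRCm38.p6.

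Genes were fitted with edgeR 4.0.16 in R 4.3.3 (TMM, filter on low counts by group, group as the only term, quasi-likelihood test, Benjamini-Hochberg adjustment, threshold 0.05). Single genes and segment ratios (0.5 added to each count, at least 50 counts per segment over all libraries) were compared by two-sided exact permutation tests over 252 labellings of log2 CPM with a prior count of 1 or of log2 ratios. Nothing in the labels says more than that replicates are separate samples, and p-values measure the spread between them. With 5 libraries a group and 1606909 to 2632560 counts a library, counting error weighs most on the members with few counts, Dbp and Per1.

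Alternatives were DESeq2 1.42.0 without and with ashr 2.2.63, limma-voom (limma 3.58.1), RLE, total-count and upper-quartile scaling, no filter, a minimum of 10 counts in every library, removal of the 20 most abundant genes, the replicate number as a block, each library left out, the most distal segment only, unshared segments only, and libraries drawn down to 1606909 counts. Fits of single segments and their ratios were added after seeing the data. In simulated gene counts, edgeR called 129 of the 190 changed genes that it tested, and 11 unchanged genes. For limma-voom these were 125 of 190 and 11, and for DESeq2 146 of 200 and 27. No shift between segments was simulated. The other steps ran in Python 3.11.15 (scipy 1.17.1, pandas 2.3.3, numpy 2.4.6; figures in matplotlib 3.10.9).

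Members and gene lists were chosen with earlier results of these data known. Named genes are all 10 members, the genes past the threshold of each list (at most 8 per list, by adjusted p), and the 5 most alike and 3 most opposite to Clock and to Dbp in Pearson's r within groups. A few genes that this rule names are not reported here. Bmal1 and Npas2 were named after their values were seen.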

Additional observations from a re-analysis of the deposited data

How the results depend on the processing

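The calls of Per3 and Tef as higher were kept under every alternative that could test them. Tef has no unshared segment, so with unshared segments only 1 clock gene was higher. Clock genes lower numbered 2 with total counts (Clock and Cry2), and 1, Clock each time, with at least 10 counts in every library and with libraries drawn down. Leaving out a library gave 2 to 3 clock genes higher and 0 to 1 lower, the latter Clock without CTRL replicate 1 or CTRL replicate 2, and the third higher gene was Nr1d1 without ASO replicate 4. On Clock-201 alone the log2 fold change of Clock reversed to 0.17, in a fit that left out its 2 other segments and ran over single segments. Total counts gave 8 partners lower, 528 of all genes higher, 3 glucocorticoid response genes lower and a median over all genes of -0.21. The most distal segment only gave 388 genes higher, 604 lower and 0 clock output genes lower, with fewer counts tested. Without ASO replicate 3, glucocorticoid response genes lower were 2, and they were 1 to 2 over all libraries left out. The cause of these changes was not tested beyond the alternatives' own construction.

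The labels state no pairing of the libraries by replicate number. The correlations of same-numbered deviations were -0.42, 0.05, 0.06, 0.06 and 0.15, and pairing was not tested beyond these values. In the fit with a replicate block, 663 genes were higher and 1175 lower, and 2 clock genes were higher and 0 lower, as without the block. Of the values of single named genes under the alternatives, 427 kept their direction and side of the threshold, 23 lost the call, 13 gained it and 1 reversed.

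Depth limits the genes with few counts, among them Npas2 and Btrc. For Dbp, Bmal1 and Per1 the sharing of segments limits the counts too. Unshared were 89 of 323 bp for Dbp, 7 of 221 bp for Bmal1 and 12 of 500 bp for the most distal Per1 segment with counts.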

Other observations

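Glucocorticoid response genes were read because Per1 also answers to glucocorticoids. Of 10 listed, 8 were tested, none was higher and 1 was lower, at a median log2 fold change of 0.01, beside 17.5% lower among all genes tested. The lower gene was Fkbp5, a chaperone of the glucocorticoid receptor (-1.09, SE 0.28, edgeR adjusted p = 0.011), which held 52.0% of its counts 1412 bp upstream of its distal end and stood at -0.60, not past the threshold, on the most distal segment alone. Neither gene of the daily temperature rhythm passed the threshold, with Cirbp at 0.23 and Rbm3 at 0.00.

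The genes most like Clock within groups, among 7735 genes over 10 libraries, were Ptbp3 (Pearson's r = 0.93), Slx9 (0.91), 2310022B05Rik (0.91), Smap1 (0.91) and Klf7 (0.91), and among the most opposite were Kctd9 (-0.91) and Scn4b (-0.90). These are the extremes of many values over few libraries and are given as a description. For Dbp, at 7 counts, no such value was computed.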
